A study of Homo sapiens with 27 samples.

Results

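Heat shock proteins are the chaperones that keep cytosolic proteins folded. HSP70 proteins bind exposed hydrophobic stretches in cycles of ATP hydrolysis that J proteins (the DNAJ families) start and that nucleotide exchange factors (the HSP110 and BAG families) end, and HSP90 proteins take over partly folded clients with the help of co-chaperones. Many of the genes are switched on together by the transcription factor HSF1, which binds heat shock elements in their promoters when unfolded protein builds up, and B-cell lymphomas are known to use HSP90 to hold signalling proteins in shape. Of the 27115 genes in the deposited data, 35 genes listed by symbol as heat shock factors, HSP70s, HSP110s, J proteins, BAG factors, HSP90s, HSP90 co-chaperones, small heat shock proteins and the chaperone-linked ubiquitin ligase STUB1 are described here. The list names them as cytosolic, but HSPA13 is known as a microsomal HSP70 of the secretory pathway, and HSPB11, also called IFT25, is known as a subunit of the transport machinery of cilia.

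The study asked which transcriptional programs change when SIRT3, a deacetylase of mitochondrial proteins, is depleted in diffuse large B-cell lymphoma (DLBCL). RNA-seq was performed on total RNA from the established DLBCL cell lines Karpas422 (oxidative phosphorylation subtype), OCI-Ly1 (germinal center B-cell-like) and HBL1 (activated B-cell-like), each carrying a scrambled control hairpin (shCTRL) or 1 of a pair of hairpins against SIRT3 (shSIRT3-1 and shSIRT3-2), with 3 replicates in each of 9 groups (27 libraries). Every group, the controls included, had been infected with a lentiviral pLKO.1 vector that carries puromycin resistance and YFP, and was collected on day 8. OCI-Ly1 was grown in another medium (Iscove's) than the other lines (RPMI), so line and medium cannot be told apart. The study describes the knockdown as replicated within each line, but the labels do not say whether a replicate was a separate infection or culture, so a p-value measures the spread between these libraries, which may be technical.

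The deposited values were used as CPM (reads of a gene scaled to a common library total). Between 28694398 and 53405456 reads fell on genes per library (median 45669254). SIRT3 itself averaged 9.78 ± 0.564, 11.5 ± 2.0 and 14.7 ± 1.48 CPM (SD, n = 3) in the controls of Karpas422, OCI-Ly1 and HBL1 and changed by -2.45 ± 0.17 (log2) with shSIRT3-1 and -1.37 ± 0.17 with shSIRT3-2 over the 3 lines, to 18.3% and 38.8% of control. The mean CPM of SIRT3 with shSIRT3-1 was 26.6% of the control mean for Karpas422, 14.3% for OCI-Ly1 and 14.8% for HBL1, and with shSIRT3-2 it was 54.4%, 47.2% and 22.2%. All 6 B-cell markers checked averaged at least 1 CPM in each line, while of the T-cell, myeloid, fibroblast and epithelial markers CD3D did so in Karpas422 and COL1A2 and EPCAM did so in HBL1. HBL1 shSIRT3-1 replicate 3 stood apart: the median gene differed from the mean of the other replicates by 0.404 on the log2 scale, against 0.0934 to 0.244 in the other 26 libraries. The 3 OCI-Ly1 controls also differed among themselves in the chaperone genes, with replicate 1 high and replicate 2 low, and the affected results are given with and without these libraries.

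The promoters of these genes were searched for the motif that HSF1 is known to bind. RefSeq windows (GRCh38.p14) reaching from 250 bases before to 50 bases after a transcription start were searched for 3 adjoining heat shock units, GAANNTTCNNGAA, or the reverse complement TTCNNGAANNTTC, where N is any base. Such a match was in 172 of 35116 windows (0.49%), and in 7 of the 30 heat shock genes that have a window (23.3%), against 0.608% of all 27305 gene symbols with a window. HSF1, HSPA14, FKBP4, STUB1 and CRYAB had no window. The matches are printed here 5′ to 3′ on the strand of the gene, 30 bases each, because they are the kind of site HSF1 is known to bind, and the capitals mark the matched units.
CHORDC1, chr11:90223083-90223112, minus strand: ccgGAAAATTCGCGAAGGTTCCTGAAacgc
DNAJA1, chr9:33025268-33025297, plus strand: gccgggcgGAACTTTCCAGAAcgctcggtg
DNAJB6, chr7:157336865-157336894, plus strand: agagccgaGAACCTTCGCGAAggtggggcg
HSP90AA1, chr14:102087111-102087140, minus strand: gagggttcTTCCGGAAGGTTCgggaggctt
HSP90AB1, chr6:44247770-44247799, plus strand: ggagcaggTTCTGGAAGATTCatgggctcc
HSP90AB1, chr6:44247823-44247852, plus strand: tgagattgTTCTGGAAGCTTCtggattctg
HSPA6, chr1:161524458-161524487, plus strand: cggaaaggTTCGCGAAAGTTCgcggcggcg
HSPA8, chr11:123062170-123062199, minus strand: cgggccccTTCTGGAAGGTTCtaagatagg
HSPA8, chr11:123062345-123062374, minus strand: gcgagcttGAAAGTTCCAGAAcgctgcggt

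HSPA8 holds a match 55 bases and another 230 bases before the start, HSP90AB1 holds matches at 165 and 112 bases, HSPA6 at 74, HSP90AA1 at 88, DNAJB6 at 131 and CHORDC1 at 60, and that of DNAJA1 begins at base 4 of the transcript. Each distance is from the start that defines the window with the match, and some genes have several windows. HSP90AB1 has 3, with both of its matches in the same window, so this start need not be the main start of the gene. The CHORDC1 match is the longest, with 3 overlapping matches over 23 bases. With only 2 units (GAANNTTC or TTCNNGAA, which the longer motif contains), 17 of the 30 genes matched (56.7%), HSPA1A, HSPA1B, HSPB1, DNAJB1 and STIP1 among them, against 16.2% of all symbols and 13.5% of all windows. HSPH1, HSPA13 and BAG3 held neither motif in these windows, which says only that these letters are not there. Of the 6 genes with a 3-unit match that passed the filter on low values, HSPA8, HSP90AA1 and DNAJA1 rose with at least 1 hairpin over the 3 lines, and HSP90AB1, DNAJB6 and CHORDC1 were not called. HSPA1B, HSPH1, DNAJB1 and STIP1 also rose, without a 3-unit match, as did FKBP4, which had no window. Whether the motif goes with the response was not tested.

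In control cells the genes spanned several orders of magnitude. Compared per kilobase of the canonical GENCODE transcript (CPM per kb, mean ± SD, n = 3), HSP90AB1, the constitutive HSP90, was the highest in HBL1 at 665 ± 86.9, against 189 ± 61.4 in OCI-Ly1 and 137 ± 26.7 in Karpas422. HSPA8, the constitutive HSP70, reached 162 ± 63.8, 175 ± 98.2 and 214 ± 40.1 CPM per kb in Karpas422, OCI-Ly1 and HBL1, which overlap. HSP90AA1, the inducible HSP90, came next at 146 ± 78.9, 67.2 ± 37.3 and 105 ± 13.1. The stress-induced HSP70 HSPA1B stayed low, at 1.59 ± 0.382, 3.19 ± 2.17 and 0.352 ± 0.139. HSF1 stood at 23 ± 0.480, 38.9 ± 1.63 and 23 ± 0.299 CPM per kb, higher in OCI-Ly1 than in either other line.

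**Figure D1:**
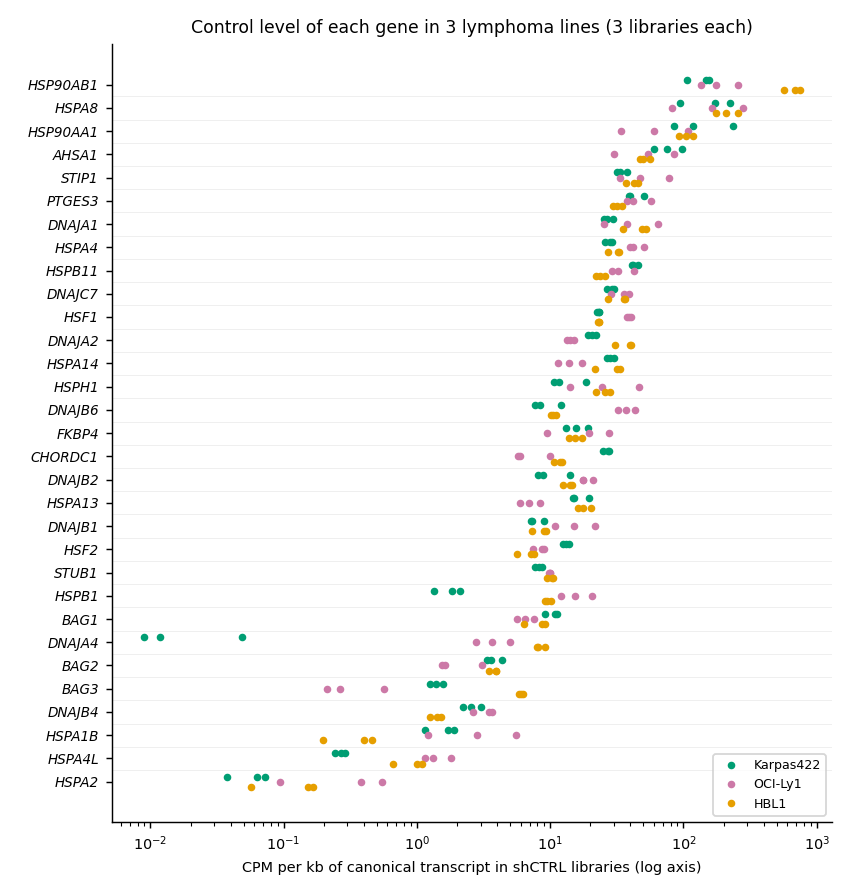
Each point is 1 shCTRL library, with the level of a gene in CPM per kb of canonical transcript on a log axis and the 3 lines in separate colors. The points of the lines lie apart for DNAJA4, BAG3 and HSPB1 and largely together for HSPA8 and FKBP4. For PTGES3 the HBL1 points lie below those of the other lines, which overlap.

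The lines differed in the levels of single chaperones. Differences were tested by limma on log2(CPM + 0.1). To be called, a gene had to change by more than 1.5-fold with an adjusted p (Benjamini-Hochberg, over all genes tested) below 0.05, and every log2 difference is given with its standard error. Of 30 heat shock genes tested, 13 differed between HBL1 and Karpas422 controls, 15 between HBL1 and OCI-Ly1 and 17 between Karpas422 and OCI-Ly1, while 54.6%, 54.6% and 50.8% of all 12607 genes did, so the shares of the heat shock genes (43.3%, 50% and 56.7%) lay near the background. These comparisons share control libraries. DNAJA4, a J protein of the type A family, was nearly silent in Karpas422 controls at 0.0281, 0.152 and 0.0371 CPM, and measured 15.5, 8.72 and 11.5 CPM in OCI-Ly1 and 25.1, 24.8 and 28.7 CPM in HBL1. The 3 lines did not overlap, and HBL1 exceeded OCI-Ly1 by 1.17 ± 0.28 (adjusted p = 0.00395); against Karpas422 the fitted difference depends on the pseudocount and is not given. BAG3, a nucleotide exchange factor that links HSP70 to autophagy, followed another order, with 15.3, 16.1 and 15 CPM in HBL1, 3.55, 4.04 and 3.2 CPM in Karpas422 and 1.45, 0.537 and 0.677 CPM in OCI-Ly1. Neighbors in that order differed by 2.08 ± 0.28 (adjusted p = 7.89e-05) and 2.01 ± 0.28 (adjusted p = 0.000119). HSPB1 (HSP27), an ATP-independent small heat shock protein, was highest in OCI-Ly1 (12, 9.31 and 16 CPM), lower in HBL1 (7.3, 7.94 and 7.06 CPM) and lowest in Karpas422 (1.42, 1.04 and 1.64 CPM). Karpas422 fell short of OCI-Ly1 by a log2 difference of -3.08 ± 0.22 (adjusted p = 6.54e-07), and HBL1 of OCI-Ly1 by a log2 difference of -0.70 ± 0.22 (adjusted p = 0.0168). The latter call was lost without OCI-Ly1 shCTRL replicate 3 (-0.51, adjusted p = 0.0665) and without replicate 1 or 3 of every group (-0.70 to -0.47, adjusted p = 0.0894 to 0.101). DNAJB6, a J protein that curbs aggregation, was high in OCI-Ly1 (109, 92.1 and 80.7 CPM) against 19.2, 29.7 and 20.8 CPM in Karpas422 and 25.4, 26.2 and 27.4 CPM in HBL1, and the latter pair differed by 0.20 ± 0.17 (adjusted p = 0.30), short of a call. CHORDC1, an HSP90 co-chaperone, had its highest level in Karpas422 (75.8, 83.2 and 84.6 CPM), and HBL1 minus Karpas422 gave -1.19 ± 0.19 (adjusted p = 0.000230). HSP90AB1 was higher in HBL1 than in Karpas422 by 2.29 ± 0.25 (adjusted p = 1.25e-05) and than in OCI-Ly1 by 1.86 ± 0.25 (adjusted p = 6.60e-05).

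With the hairpins against SIRT3, part of the HSP70 and HSP90 machinery rose over the 3 lines together and HSPA13 fell. Over the 3 lines, with a term for the line, 31 of the 35 genes passed the filter (at least 1 CPM in at least 3 libraries) and were tested among 13076 genes. With shSIRT3-1, 5 rose (HSPA1B, HSPA8, HSPH1, DNAJB1 and FKBP4) and 1 fell (HSPA13), against 3.92% of all tested genes called higher and 9.09% called lower. With shSIRT3-2, 8 rose, adding HSP90AA1, DNAJA1 and STIP1, and HSPA13 again fell, against 3.29% called higher and 10.2% called lower. The median log2 fold change of the 31 genes was 0.17 with shSIRT3-1 and 0.22 with shSIRT3-2, beside -0.05 and -0.03 over all tested genes. Of all calls, 69.9% were lower with shSIRT3-1 and 75.6% with shSIRT3-2, against 54.8% and 57.5% under quantile normalization. Both comparisons use the same shCTRL libraries, so their values stand side by side and are not independent. HSPA4L, HSPB1 and HSPB11, whose values are given below, were not called over the 3 lines with either hairpin, and neither were the remaining 19 tested genes. The log2 fold changes of these 19 ranged from -0.33 (BAG3) to 0.56 (HSPA2) with shSIRT3-1 and from -0.48 (DNAJB6) to 0.53 (AHSA1) with shSIRT3-2. Of these 19, 7 and 6 had an adjusted p under 0.05 by limma with a change below 1.5-fold. The edgeR quasi-likelihood test on the recovered reads called DNAJB4 in addition with shSIRT3-1 and did not call STIP1 with shSIRT3-2. Without HBL1 shSIRT3-1 replicate 3, 7 genes rose with shSIRT3-1, HSPA2 and DNAJA1 in addition, and without OCI-Ly1 shCTRL replicate 1, 7 and 9 rose with shSIRT3-1 and shSIRT3-2. Without replicate 2 of every group, 3 and 5 genes were called. Counts from such reduced fits, here and below, stand without the share of all tested genes unless it is printed. They do not show whether the heat shock genes changed more than other genes.

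**Figure D2:**
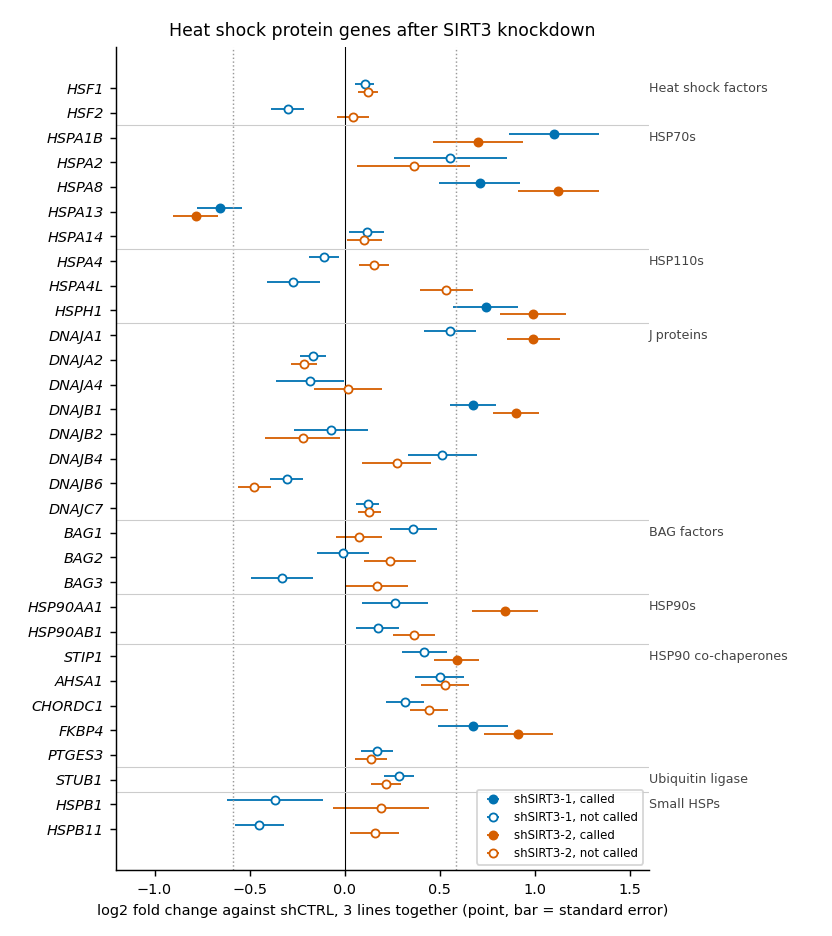
Each row is a gene, ordered by role, with the log2 fold change against shCTRL over the 3 lines (point) and its standard error (bar) for shSIRT3-1 (blue) and shSIRT3-2 (orange). Filled points passed the test, dotted lines mark a fold change of 1.5, and HSPA13 is the 1 gene whose filled points lie to the left.

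Among the 8 HSP70 genes, 5 were tested, and HSPA1B and HSPA8 rose with each hairpin. HSPA8 (minus strand of chr11:122928197-122933938 in GRCh37) carries most of the cell's HSP70 under normal conditions. In Karpas422, HSPA8 measured 388, 215 and 501 CPM with shCTRL, 479.9, 517 and 496 CPM with shSIRT3-1 and 604, 696 and 539.6 CPM with shSIRT3-2. In OCI-Ly1, HSPA8 measured 629.6, 187 and 369 CPM with shCTRL, 776, 558 and 669 CPM with shSIRT3-1 and 639, 713 and 474 CPM with shSIRT3-2. In HBL1, HSPA8 measured 579, 473 and 398 CPM with shCTRL, 935, 1041 and 478 CPM with shSIRT3-1 and 1758, 1765 and 1437 CPM with shSIRT3-2. In HBL1 the shSIRT3-2 libraries lay far above all controls, and shSIRT3-1 replicate 3 lay within their range. In Karpas422 shSIRT3-2 cleared the controls and shSIRT3-1 did not, and in OCI-Ly1 both hairpins overlapped the controls. Over the 3 lines HSPA8 changed by 0.71 ± 0.21 (adjusted p = 0.0108) with shSIRT3-1 and 1.12 ± 0.21 (adjusted p = 0.000233) with shSIRT3-2, above the mean log2 level of the line's controls in 18 of 18 knockdown libraries. Without HBL1 shSIRT3-1 replicate 3 the change with shSIRT3-1 was 0.84 ± 0.20 (adjusted p = 0.00185). Without replicate 2 of every group HSPA8 changed by 0.40 (adjusted p = 0.285) with shSIRT3-1 and 0.76 (adjusted p = 0.0526) with shSIRT3-2, and neither was called.

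HSPA1B (plus strand of chr6:31795515-31798031) encodes the HSP70 that heat shock induces. In Karpas422, HSPA1B measured 4.74, 4.33 and 2.91 CPM with shCTRL, 8.85, 9.6 and 6.36 CPM with shSIRT3-1 and 10.03, 9.88 and 4.79 CPM with shSIRT3-2. In OCI-Ly1, HSPA1B measured 13.9, 3.05 and 7.15 CPM with shCTRL, 15.6, 9.17 and 13.9 CPM with shSIRT3-1 and 10.4, 5.27 and 7.24 CPM with shSIRT3-2. In HBL1, HSPA1B measured 1.0, 1.16 and 0.493 CPM with shCTRL, 1.89, 2.2 and 3.03 CPM with shSIRT3-1 and 2.15, 1.8 and 1.45 CPM with shSIRT3-2. In HBL1 every knockdown library lay above every control, as it did in Karpas422, by a narrow margin in shSIRT3-2 replicate 3, and in OCI-Ly1 the groups overlapped. Over the 3 lines HSPA1B changed by 1.10 ± 0.24 (adjusted p = 0.000695) with shSIRT3-1 and 0.70 ± 0.24 (adjusted p = 0.0211) with shSIRT3-2. The shSIRT3-2 call was lost without OCI-Ly1 shCTRL replicate 2 (0.59, adjusted p = 0.0512) and without HBL1 shCTRL replicate 3 (0.59, adjusted p = 0.0517), and without replicate 2 (0.63, adjusted p = 0.129) or replicate 3 (0.70, adjusted p = 0.0573) of every group. It was also lost without Karpas422 (0.56, adjusted p = 0.180) and without HBL1 (0.55, adjusted p = 0.180). HSPA1A encodes the same protein, and 75.1% of the 50-base windows of its transcript (the read length) also occur in HSPA1B, so how reads were divided between them is uncertain: HSPA1A measured between 0.0547 and 0.916 CPM, under the filter.

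HSPA13 (minus strand of chr21:15743436-15755805) moved the other way. In Karpas422, HSPA13 measured 59.5, 58 and 76.7 CPM with shCTRL, 33.5, 37 and 32.3 CPM with shSIRT3-1 and 28.5, 34.2 and 30.2 CPM with shSIRT3-2. In OCI-Ly1, HSPA13 measured 27.4, 33.1 and 23.6 CPM with shCTRL, 26.7, 26.3 and 27.7 CPM with shSIRT3-1 and 25.2, 19.2 and 26.2 CPM with shSIRT3-2. In HBL1, HSPA13 measured 64.2, 69.7 and 79.4 CPM with shCTRL, 41.1, 34.1 and 30.3 CPM with shSIRT3-1 and 35.4, 34.4 and 33 CPM with shSIRT3-2. In Karpas422 and HBL1 the knockdown libraries lay below every control without overlap, whereas in OCI-Ly1 they overlapped the controls. In the joint fit HSPA13 changed by -0.66 ± 0.12 (adjusted p = 0.000136) with shSIRT3-1 and -0.78 ± 0.12 (adjusted p = 2.09e-05) with shSIRT3-2, and 18 of 18 knockdown libraries were below the mean log2 level of the controls. The shSIRT3-1 change was under the fold limit without Karpas422 (-0.53, adjusted p = 0.0186) and without HBL1 (-0.48, adjusted p = 0.0225), and the shSIRT3-2 call held without either line. The other tested HSP70s were not called: HSPA14, which works with ribosomes, changed by 0.12 ± 0.09 and 0.10 ± 0.09, and the low testis-type HSPA2 by 0.56 ± 0.30 and 0.36 ± 0.30 with shSIRT3-1 and shSIRT3-2. HSPA1L (0.0643 to 1.10 CPM) and HSPA6 (0 to 0.233 CPM, 0 in 6 of 27 libraries) stayed under the filter with HSPA1A.

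Of the HSP110s, which act as nucleotide exchange factors for HSP70, HSPH1 (minus strand of chr13:31709110-31736525) rose with each hairpin. In Karpas422, HSPH1 measured 61, 55.8 and 97.1 CPM with shCTRL, 142, 162 and 156 CPM with shSIRT3-1 and 193, 237 and 175 CPM with shSIRT3-2. In OCI-Ly1, HSPH1 measured 244, 73.6 and 129 CPM with shCTRL, 254, 196 and 219 CPM with shSIRT3-1 and 221, 250.01 and 163 CPM with shSIRT3-2. In HBL1, HSPH1 measured 146, 135 and 115 CPM with shCTRL, 164, 181 and 153 CPM with shSIRT3-1 and 229, 237 and 216 CPM with shSIRT3-2. Every knockdown library in Karpas422 and HBL1 lay above every control, while OCI-Ly1 shCTRL replicate 1 reached the level of the knockdown libraries. The change over the 3 lines was 0.74 ± 0.17 (adjusted p = 0.00137) with shSIRT3-1 and 0.99 ± 0.17 (adjusted p = 8.58e-05) with shSIRT3-2, and the former was lost without replicate 2 of every group (0.55, adjusted p = 0.0526) and without Karpas422 (0.54, adjusted p = 0.0559). HSPA4, which was not called, gave -0.11 ± 0.08 and 0.15 ± 0.08. HSPA4L (plus strand of chr4:128702976-128761888) differed between the hairpins. In Karpas422, HSPA4L measured 2.86, 3.07 and 2.57 CPM with shCTRL, 2.27, 2.46 and 2.49 CPM with shSIRT3-1 and 4.51, 4.05 and 5.26 CPM with shSIRT3-2. In OCI-Ly1, HSPA4L measured 19, 12.1 and 14.1 CPM with shCTRL, 18.4, 15.8 and 17.5 CPM with shSIRT3-1 and 19.6, 18.1 and 23.8 CPM with shSIRT3-2. In HBL1, HSPA4L measured 11.5, 10.6 and 7.05 CPM with shCTRL, 5.85, 6.59 and 4.12 CPM with shSIRT3-1 and 12.5, 14 and 13.1 CPM with shSIRT3-2. In Karpas422 and HBL1 shSIRT3-1 lay below and shSIRT3-2 above every control. Against shCTRL over the 3 lines the hairpins gave -0.27 ± 0.14 (adjusted p = 0.131) and 0.53 ± 0.14 (adjusted p = 0.00425), neither of them a call.

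Among the 8 J proteins, DNAJB1 rose with each hairpin and DNAJA1 with shSIRT3-2. DNAJB1 (HSP40, minus strand of chr19:14625581-14671203) is the classical stress-induced partner of HSP70. In Karpas422, DNAJB1 measured 16.3, 19.99 and 16.1 CPM with shCTRL, 30.3, 30.3 and 26.8 CPM with shSIRT3-1 and 45.6, 43.2 and 33.7 CPM with shSIRT3-2. In OCI-Ly1, DNAJB1 measured 49, 24.2 and 33.7 CPM with shCTRL, 50.8, 39 and 48 CPM with shSIRT3-1 and 46, 45.3 and 40.8 CPM with shSIRT3-2. In HBL1, DNAJB1 measured 20.3, 20.7 and 16.5 CPM with shCTRL, 32.3, 33.9 and 39 CPM with shSIRT3-1 and 44.4, 42.5 and 38.4 CPM with shSIRT3-2. In Karpas422 and HBL1 no knockdown library overlapped a control, and shSIRT3-2 lay above shSIRT3-1 in Karpas422. In the joint fit DNAJB1 changed by 0.68 ± 0.12 (adjusted p = 0.000125) and 0.90 ± 0.12 (adjusted p = 4.82e-06), and without HBL1 the first was under the fold limit (0.58, adjusted p = 0.0135). DNAJA1 (plus strand of chr9:33025271-33039905) is a farnesylated J protein that works with HSPA8 in protein refolding and import. In Karpas422, DNAJA1 measured 69, 58.6 and 61.4 CPM with shCTRL, 116, 116 and 114 CPM with shSIRT3-1 and 164, 178 and 147 CPM with shSIRT3-2. In OCI-Ly1, DNAJA1 measured 148, 58.3 and 87.9 CPM with shCTRL, 154, 132 and 138 CPM with shSIRT3-1 and 156, 188 and 125 CPM with shSIRT3-2. In HBL1, DNAJA1 measured 122, 113 and 82.2 CPM with shCTRL, 125, 124 and 102 CPM with shSIRT3-1 and 204, 197 and 165 CPM with shSIRT3-2. Karpas422 showed 3 separate levels, shCTRL lowest and shSIRT3-2 highest, while in HBL1 the shSIRT3-1 libraries overlapped the controls. In the joint fit DNAJA1 changed by 0.55 ± 0.14 (adjusted p = 0.00272) with shSIRT3-1, under the fold limit, and 0.99 ± 0.14 (adjusted p = 6.65e-06) with shSIRT3-2. Without any 1 of 4 libraries (OCI-Ly1 shCTRL replicate 1, HBL1 shCTRL replicates 1 and 2 and HBL1 shSIRT3-1 replicate 3) the shSIRT3-1 change was called, at 0.59 to 0.66.

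DNAJB6 was lower than the control mean in 18 of 18 knockdown libraries, with a log2 fold change of -0.31 ± 0.09 (adjusted p = 0.00749) and -0.48 ± 0.09 (adjusted p = 0.000160), which did not reach the fold limit. DNAJA2, DNAJC7 and DNAJB2 gave -0.17 ± 0.07, 0.12 ± 0.06 and -0.07 ± 0.20 with shSIRT3-1 and -0.21 ± 0.07, 0.13 ± 0.06 and -0.22 ± 0.20 with shSIRT3-2, and DNAJA4 gave -0.18 ± 0.18 and 0.02 ± 0.18. The DNAJA4 values include Karpas422, where it was nearly silent and the change depends on the pseudocount. In HBL1, DNAJA4 measured 25.1, 24.8 and 28.7 CPM with shCTRL, 21.8, 25 and 20 CPM with shSIRT3-1 and 35.9, 39.9 and 39.8 CPM with shSIRT3-2. The shSIRT3-2 libraries lay above every control, a change called with median-ratio scaling and edgeR quasi-likelihood but not in the main fit. DNAJB4 was called in HBL1 with shSIRT3-1 (1.23 ± 0.39, adjusted p = 0.0356), where it measured 4.1, 4.4 and 3.63 CPM in controls and 7.08, 6.0 and 20.5 CPM with shSIRT3-1. The call was lost without any 1 of the 3 HBL1 controls or the 3 HBL1 shSIRT3-2 libraries (1.15 to 1.29, adjusted p = 0.0525 to 0.0907) and without replicate 1 or 2 of every group (1.45 to 1.62, adjusted p = 0.0738 to 0.147). Replicate 3, the library that stood apart, was much the highest, and without it the change was 0.68 ± 0.15 (adjusted p = 0.00627). The same library had the highest DNAJB2 of HBL1, 84.1 CPM against 20.2 to 44.8 CPM in the other HBL1 libraries. The BAG factors, which release ADP from HSP70, were not called over the 3 lines: BAG1 gave 0.36 ± 0.12 and 0.08 ± 0.12, BAG2 -0.01 ± 0.14 and 0.24 ± 0.14, and BAG3 -0.33 ± 0.16 and 0.17 ± 0.16. In BAG2, 44.3% of the 50-base windows are shared with other genes, mainly RAB23 on the other strand, and the strand of counting is not given in the sources used here.

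Of the HSP90s, HSP90AA1 (minus strand of chr14:102547079-102606036) rose with shSIRT3-2. In Karpas422, HSP90AA1 measured 379, 275 and 759 CPM with shCTRL, 536, 590.3 and 674 CPM with shSIRT3-1 and 858, 969.98 and 920.00 CPM with shSIRT3-2. In OCI-Ly1, HSP90AA1 measured 348, 110.5 and 193 CPM with shCTRL, 303, 250.5 and 236 CPM with shSIRT3-1 and 335, 432 and 271 CPM with shSIRT3-2. In HBL1, HSP90AA1 measured 382, 339 and 297 CPM with shCTRL, 317, 330.1 and 291 CPM with shSIRT3-1 and 539.6, 531 and 505 CPM with shSIRT3-2. The shSIRT3-2 libraries of Karpas422 and HBL1 all lay above the controls and the shSIRT3-1 libraries, and the OCI-Ly1 controls spanned most of the range of the line. In the joint fit the change was 0.26 ± 0.17 (adjusted p = 0.236) with shSIRT3-1 and 0.84 ± 0.17 (adjusted p = 0.000498) with shSIRT3-2, the latter lost without replicate 2 of every group (0.53, adjusted p = 0.0528). HSP90AB1 changed by 0.17 ± 0.11 (adjusted p = 0.228) and 0.36 ± 0.11 (adjusted p = 0.0120) and was not called.

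All 5 HSP90 co-chaperones had a fold change above 0 on the log2 scale with each hairpin, and FKBP4 and STIP1 were called. FKBP4 (FKBP52, plus strand of chr12:2904136-2914589) is a prolyl isomerase of steroid receptor complexes. In Karpas422, FKBP4 measured 58.5, 48.5 and 71.9 CPM with shCTRL, 102, 110.03 and 101 CPM with shSIRT3-1 and 112, 120.02 and 75.6 CPM with shSIRT3-2. In OCI-Ly1, FKBP4 measured 103, 35.4 and 72.6 CPM with shCTRL, 93.1, 56.3 and 79 CPM with shSIRT3-1 and 92.1, 80.02 and 74.1 CPM with shSIRT3-2. In HBL1, FKBP4 measured 64.1, 57.1 and 51.8 CPM with shCTRL, 122, 144 and 85 CPM with shSIRT3-1 and 179, 189 and 165 CPM with shSIRT3-2. In HBL1 and Karpas422 every knockdown library lay above every control, with the largest step at shSIRT3-2 in HBL1, and the OCI-Ly1 groups overlapped. FKBP4 changed by 0.68 ± 0.18 (adjusted p = 0.00502) and 0.91 ± 0.18 (adjusted p = 0.000386), and the first was lost without replicate 2 of every group (0.48, adjusted p = 0.117). Without Karpas422 the shSIRT3-1 call was lost (0.60, adjusted p = 0.0767), and without HBL1 both were (0.52, adjusted p = 0.0697 with shSIRT3-1 and 0.56, adjusted p = 0.0515 with shSIRT3-2). STIP1 (HOP, plus strand of chr11:63952744-63972015) hands clients from HSP70 to HSP90. In Karpas422, STIP1 measured 67.4, 71.1 and 80.6 CPM with shCTRL, 114, 118 and 116 CPM with shSIRT3-1 and 129, 137 and 105 CPM with shSIRT3-2. In OCI-Ly1, STIP1 measured 166, 72 and 102 CPM with shCTRL, 154, 117 and 130.1 CPM with shSIRT3-1 and 142, 139 and 114 CPM with shSIRT3-2. In HBL1, STIP1 measured 97.9, 91 and 79.3 CPM with shCTRL, 112, 122 and 91.4 CPM with shSIRT3-1 and 151, 152 and 136 CPM with shSIRT3-2. Karpas422 knockdown libraries and HBL1 shSIRT3-2 libraries lay clear of their controls. STIP1 changed by 0.42 ± 0.12 (adjusted p = 0.00662) with shSIRT3-1 and 0.59 ± 0.12 (adjusted p = 0.000375) with shSIRT3-2, just past the fold limit, and leaving out any 1 of 9 libraries (Karpas422 shCTRL replicates 1 and 2, Karpas422 shSIRT3-2 replicates 1 and 2, OCI-Ly1 shCTRL replicate 2, HBL1 shCTRL replicate 3 or any HBL1 shSIRT3-2 library) took it below, to between 0.53 and 0.58, as did leaving out replicate 2 of every group (0.44, adjusted p = 0.0540), Karpas422 (0.50, adjusted p = 0.0251) or HBL1 (0.52, adjusted p = 0.0155). AHSA1, which speeds the HSP90 ATPase, changed by 0.50 ± 0.13 (adjusted p = 0.00316) and 0.53 ± 0.13 (adjusted p = 0.00201) and was above the control mean in 18 of 18 knockdown libraries, CHORDC1 by 0.32 ± 0.10 and 0.45 ± 0.10, and PTGES3 (p23) by 0.17 ± 0.08 and 0.14 ± 0.08.

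**Figure D3:**
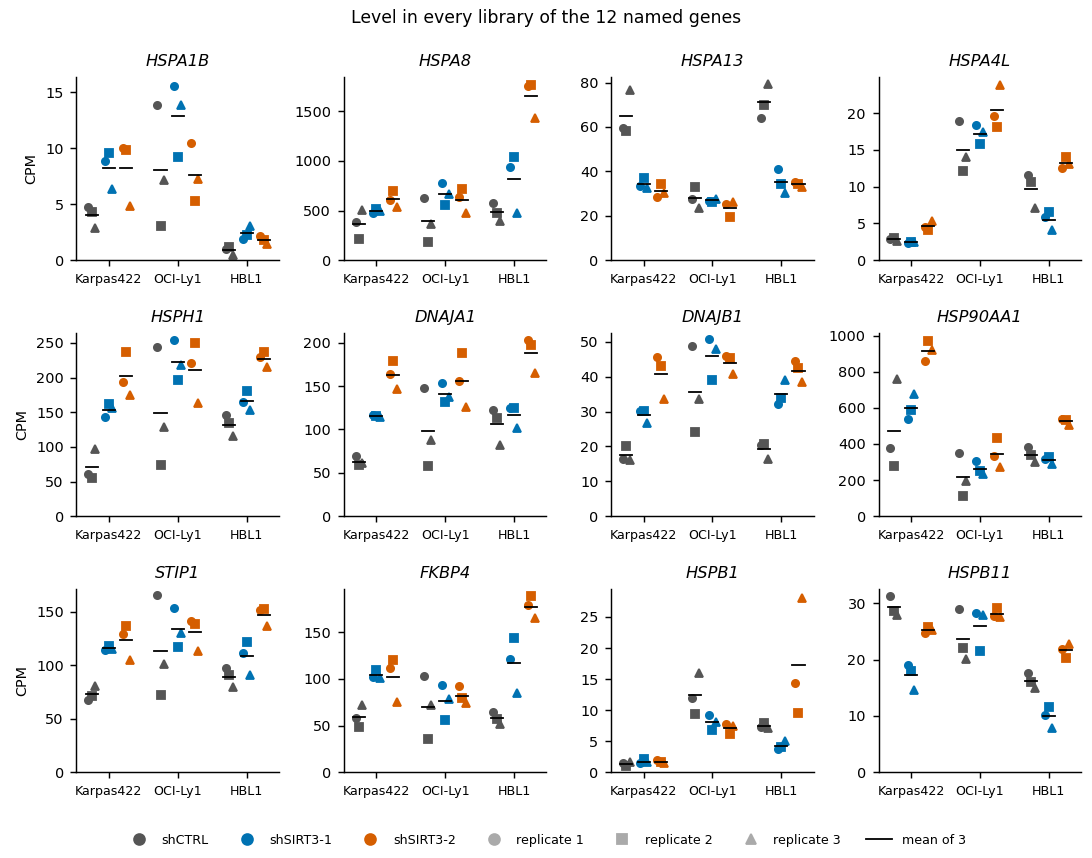
Each panel is 1 gene, with CPM on a linear axis from 0, libraries as points by replicate symbol and shRNA color, and a line at the mean of 3. HSPA8, DNAJA1 and FKBP4 reach their highest levels with shSIRT3-2 in HBL1, HSPA13 falls in Karpas422 and HBL1, and OCI-Ly1 shCTRL replicates 1 (circle) and 2 (square) lie far apart.

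Of the small heat shock proteins, HSPB1 and HSPB11 were tested and neither was called over the 3 lines, at -0.37 ± 0.25 and -0.45 ± 0.13 with shSIRT3-1 and 0.19 ± 0.25 and 0.16 ± 0.13 with shSIRT3-2. CRYAB measured at most 0.0657 CPM. In OCI-Ly1, HSPB1 measured 12, 9.31 and 16 CPM with shCTRL, 9.24, 6.78 and 8.08 CPM with shSIRT3-1 and 7.77, 6.18 and 7.47 CPM with shSIRT3-2. In HBL1, HSPB1 measured 7.3, 7.94 and 7.06 CPM with shCTRL, 3.77, 4.01 and 5.0 CPM with shSIRT3-1 and 14.3, 9.56 and 28.1 CPM with shSIRT3-2. HSPB1 (plus strand of chr7:75931990-75933612) was lower than control with both hairpins in OCI-Ly1, and in HBL1 it was lower with shSIRT3-1 and higher with shSIRT3-2. In Karpas422 it stayed between 1.04 and 2.09 CPM. COL1A2 went the same ways in HBL1, from 12.6 to 15.2 CPM in controls to 1.72 to 4.92 CPM with shSIRT3-1 and 36.8 to 62.0 CPM with shSIRT3-2, while the other fibroblast markers averaged under 1 CPM, and its part in the HSPB1 result was not tested. In Karpas422, HSPB11 measured 31.3, 28.7 and 28 CPM with shCTRL, 19.1, 18 and 14.7 CPM with shSIRT3-1 and 24.7, 25.8 and 25.3 CPM with shSIRT3-2. In OCI-Ly1, HSPB11 measured 29, 22 and 20.05 CPM with shCTRL, 28.4, 21.6 and 28 CPM with shSIRT3-1 and 27.9, 29.2 and 27.6 CPM with shSIRT3-2. In HBL1, HSPB11 measured 17.6, 16.1 and 15 CPM with shCTRL, 10.2, 11.6 and 7.92 CPM with shSIRT3-1 and 21.8, 20.4 and 22.9 CPM with shSIRT3-2. HSPB11 (minus strand of chr1:54382247-54411372) was below every control with both hairpins in Karpas422 and with shSIRT3-1 in HBL1, and above every control with shSIRT3-2 in HBL1. Neither heat shock factor was called: HSF1 gave 0.10 ± 0.05 and 0.12 ± 0.05, and HSF2 gave -0.30 ± 0.08 (adjusted p = 0.00694) and 0.04 ± 0.08 (adjusted p = 0.709). STUB1, the ubiquitin ligase that marks HSP70 and HSP90 clients, changed by 0.29 ± 0.08 and 0.22 ± 0.08, with 39.9% of its windows shared with JMJD8 on the other strand.

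The hairpins were also compared with shCTRL within each line. In Karpas422, 6 of 29 tested genes rose and 3 fell with shSIRT3-1 (4.45% and 11.5% of all 11235 tested genes), and 9 rose and 1 fell with shSIRT3-2 (5.55% and 9.44%). HSPA1B, HSPH1, DNAJA1, DNAJB1, STIP1 and FKBP4 rose and HSPA13 fell there with each hairpin, HSPA8, HSP90AA1 and HSPA4L rose with shSIRT3-2, and HSPB11 and BAG3 fell with shSIRT3-1. HSPH1 rose by 1.53 ± 0.19 (adjusted p = 0.000625) and DNAJA1 by 1.37 ± 0.10 (adjusted p = 4.51e-05) with shSIRT3-2. BAG3 measured 3.55, 4.04 and 3.2 CPM in controls and 2.08, 2.1 and 1.99 CPM with shSIRT3-1, all lower, a change of -0.77 ± 0.20 (adjusted p = 0.0143), and the call was lost without shCTRL replicate 2 (-0.69, adjusted p = 0.0517) and without replicate 1 or 2 of every group (-0.79 to -0.70, adjusted p = 0.113 to 0.143). Without replicate 1 of every group the Karpas422 counts were 4 and 4, and under quantile normalization the share of all calls with shSIRT3-1 that were lower went from 72.1% to 53.1%. Several calls rested on single Karpas422 libraries. HSPA8 with shSIRT3-2 was lost without replicate 1 or 2 of any of the 3 groups (0.47 to 0.89, adjusted p = 0.0532 to 0.102), and HSP90AA1 with shSIRT3-2 without shCTRL replicate 1 or 2 or shSIRT3-2 replicate 2 (0.77 to 1.05, adjusted p = 0.0556 to 0.0686). HSPA1B was lost with shSIRT3-1 without shCTRL replicate 3 or shSIRT3-1 replicate 1 or 2 (0.83 to 0.98, adjusted p = 0.0742 to 0.0748) and with shSIRT3-2 without shCTRL replicate 2 or 3 or shSIRT3-2 replicate 1 or 2 (0.77 to 1.05, adjusted p = 0.0625 to 0.103). HSPA4L without shSIRT3-2 replicate 3 stood at 0.58, under the fold limit, while HSPA8 (0.79) and HSP90AA1 (0.89) were called with shSIRT3-1 without shCTRL replicate 3.

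In HBL1, 4 of 30 tested genes rose and 3 fell with shSIRT3-1 (8.83% and 18.8% of all 11862 tested genes), and 11 rose and 1 fell with shSIRT3-2 (7.51% and 16%). HSPA8 rose by 1.78 ± 0.28 (adjusted p = 0.0020) and FKBP4 by 1.62 ± 0.18 (adjusted p = 0.000410) with shSIRT3-2, and AHSA1 and CHORDC1 by 0.67 ± 0.11 (adjusted p = 0.00207) and 0.70 ± 0.11 (adjusted p = 0.00172). With shSIRT3-1, HSPA1B, DNAJB1, DNAJB4 and FKBP4 rose and HSPA13, HSPA4L and HSPB11 fell, HSPA4L with a log2 fold change of -0.80 ± 0.22 (adjusted p = 0.0198). Without HBL1 shSIRT3-1 replicate 3, HSPA8 also rose with shSIRT3-1 (1.05 ± 0.16, adjusted p = 0.00121), HSPB11 was no longer called, and DNAJB2 fell with shSIRT3-2 (-0.78 ± 0.18, adjusted p = 0.00635). In HBL1 with shSIRT3-2, HSPB1 was lost without any control or without shSIRT3-2 replicate 1 or 3 (0.65 to 1.13, adjusted p = 0.0520 to 0.0923), HSPA1B without shCTRL replicate 1 or 3 or shSIRT3-2 replicate 1 or 2 (0.67 to 1.12, adjusted p = 0.0560 to 0.127) and HSP90AA1 without shCTRL replicate 3 (0.54). HSPA4L with shSIRT3-1 was lost without shCTRL replicate 1 or 2 (-0.73 to -0.67, adjusted p = 0.0757 to 0.0760). Without replicate 1 of every group the HBL1 counts were 2 and 3, and without replicate 2 they were 3 and 3. The shSIRT3-2 calls of HSPA1B, HSPA8, HSPH1, HSPB1, HSP90AA1, DNAJA1, STIP1, AHSA1 and CHORDC1 were lost in both of these fits. The share of calls that were lower went from 68.0% to 48.4% with shSIRT3-1 and from 68.0% to 49.7% with shSIRT3-2 under quantile normalization. The median log2 fold change of all tested genes with shSIRT3-1 in HBL1 was -0.11 and moved to 0.04 under quantile normalization, and that of the heat shock genes moved from 0.11 to 0.20.

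In OCI-Ly1, BAG1 alone rose with shSIRT3-1 and HSPB1 alone fell with shSIRT3-2 among 31 tested genes, against 2.04% higher and 2.45% lower of all 11205 tested genes with shSIRT3-1 and 2.15% and 4.26% with shSIRT3-2. BAG1 measured 28.9, 24.7 and 21.7 CPM in controls and 37.4, 40.4 and 39.9 CPM with shSIRT3-1, without overlap (0.65 ± 0.11, adjusted p = 0.0165), a call lost without shCTRL replicate 3 or shSIRT3-1 replicate 2 or 3 (0.55 to 0.64, adjusted p = 0.0446 to 0.0647) and without replicate 1, 2 or 3 of every group (0.54 to 0.79, adjusted p = 0.0752 to 0.281). HSPB1 changed by -0.77 ± 0.20 (adjusted p = 0.0420) with shSIRT3-2, a call lost without shCTRL replicate 3, shSIRT3-1 replicate 1 or 3 or any shSIRT3-2 library (-0.83 to -0.57) and without replicate 1 or 3 of every group (-0.84 to -0.60, adjusted p = 0.123 to 0.30). The controls carried the spread: AHSA1 measured 114, 40.4 and 72.4 CPM there, with replicate 1 above and replicates 2 and 3 below every knockdown library. Without OCI-Ly1 shCTRL replicate 1, 10 genes rose with shSIRT3-1, and 10 rose and 1 fell with shSIRT3-2, while the share of all tested genes called went from 4.5% to 10.1% and from 6.41% to 11.8%. Without OCI-Ly1 shCTRL replicate 2 the counts stayed at 1 and 1, and without replicate 3 limma called 0 and 0, with 4 and 5 at an unadjusted p under 0.05. HSPA8 without replicate 1 was at 1.33 ± 0.29 (adjusted p = 0.0182) and 1.19 ± 0.29 (adjusted p = 0.0250), and DNAJA1 at 0.97 ± 0.20 (adjusted p = 0.0163) and 1.11 ± 0.20 (adjusted p = 0.0112). OCI-Ly1 shCTRL replicate 2 was also the control with the most ATF3, at 7.02 CPM against 0.279 and 0.786 CPM in replicates 1 and 3, and its part in the spread of the chaperones was not tested.

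**Figure D4:**
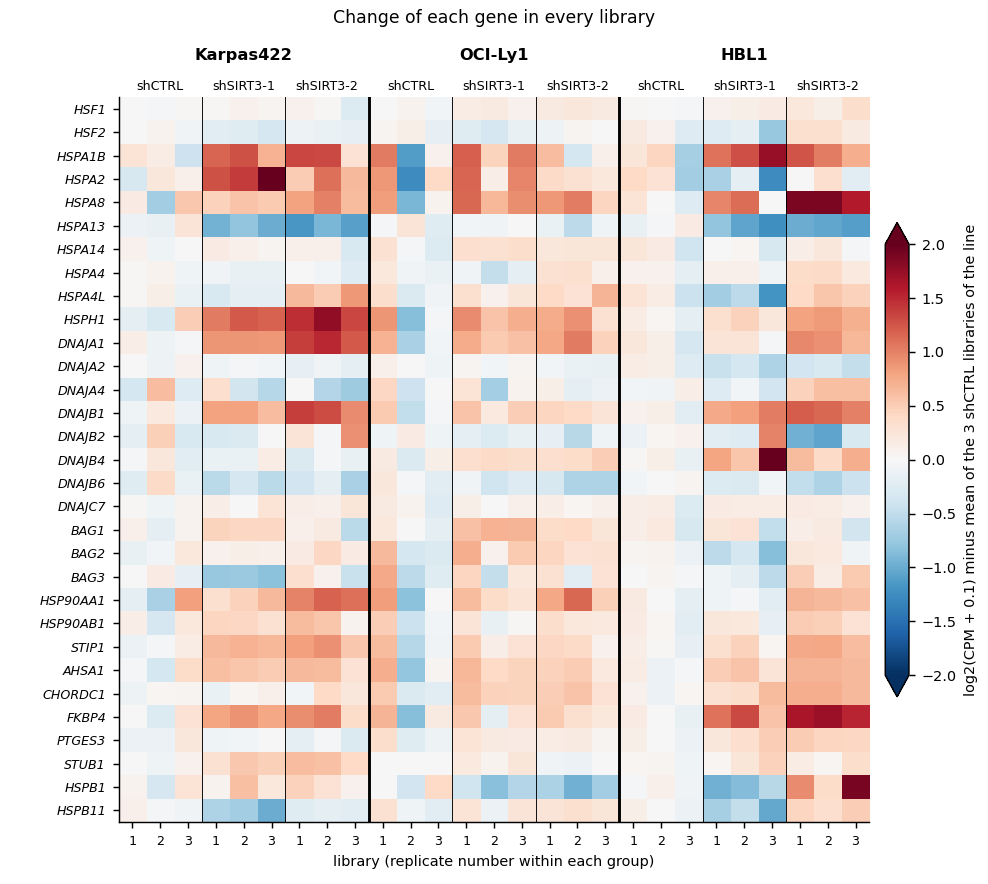
Rows are the 31 tested genes, columns the 27 libraries by line, shRNA and replicate, and color is log2(CPM + 0.1) minus the mean of the 3 shCTRL libraries of the line, cut at 2 either way. HSPH1, DNAJA1 and DNAJB1 are red with both hairpins in Karpas422, HSPA8 and FKBP4 are darkest with shSIRT3-2 in HBL1, and the OCI-Ly1 controls run from red (replicate 1) to blue (replicate 2).

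Whether the response differed between the lines was tested with the interaction of line and shRNA. It passed for 10 of 31 heat shock genes (HSPA2, HSPA4L, HSPA13, HSPB1, HSPB11, DNAJA2, DNAJB1, DNAJB2, BAG2 and STUB1), or 32.3%, against 41.8% of all tested genes. HSPB1 (adjusted p = 0.000770), HSPB11 (0.0010) and HSPA13 (0.00226) had the smallest adjusted p by limma. HSPA8 (adjusted p = 0.159), HSPH1 (0.163), HSP90AA1 (0.642) and STIP1 (0.286) did not pass, so their calls in Karpas422 and HBL1 and not in OCI-Ly1 were not shown to be a difference between lines. Without OCI-Ly1 shCTRL replicate 2, however, HSPA8 (0.0430), HSPH1 (0.0157), DNAJA1 (0.0218), STIP1 (0.0319) and FKBP4 (0.00222) passed, and without its replicate 1 HSPH1 (0.0452) and DNAJA1 (0.0297) did. DNAJB1 passed at 0.0454 and lost the call without any 1 of 19 libraries (0.0531 to 0.104). The call was likewise lost for BAG2 without any 1 of 19 libraries (adjusted p = 0.0502 to 0.119), for STUB1 of 15 (0.0503 to 0.0891), for DNAJA2 of 14 (0.0503 to 0.123), for HSPA2 of 6 (0.0542 to 0.0923) and for DNAJB2 of 4 (0.0512 to 0.0844). Without replicate 1 of every group 0 of the 30 tested heat shock genes passed by limma (6 at an unadjusted p under 0.05), against 2.71% of all tested genes. HSPA4L, DNAJA2, DNAJB2, BAG2 and STUB1 lost the call without replicate 2 of every group, and HSPA2, HSPA13, DNAJB1 and BAG2 without replicate 3.

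The hairpins were also compared with each other. Between shSIRT3-2 and shSIRT3-1 over the 3 lines, HSPA4L and HSPB11 were called, both higher with shSIRT3-2, against 11.3% of all tested genes, of which 53.4% were lower (41.9% with a pseudocount of 1). HSPA4L differed by 0.80 ± 0.14 (adjusted p = 0.000115) and HSPB11 by 0.61 ± 0.13 (adjusted p = 0.000885), the latter lost without Karpas422 shSIRT3-1 replicate 3, HBL1 shSIRT3-1 replicate 1 or 3 or any HBL1 shSIRT3-2 library (0.53 to 0.58). Without HBL1 neither was called (0.57, adjusted p = 0.00554 and 0.34, adjusted p = 0.0934). HSP90AA1 differed by 0.58 ± 0.17 (adjusted p = 0.0124), just under the fold limit, and was called without any 1 of 7 libraries (0.59 to 0.63). DNAJA1 (0.44 ± 0.14, adjusted p = 0.0174), HSF2 (0.35 ± 0.08, adjusted p = 0.00317), BAG3 (0.50 ± 0.16, adjusted p = 0.0226) and HSPA4 (0.26 ± 0.08, adjusted p = 0.0119) were also higher with shSIRT3-2 at an adjusted p under 0.05 with a smaller fold change. HSPA1B went the other way, at -0.40 ± 0.24 (adjusted p = 0.198), and was not called. Of the 31 genes, 20 had a difference above 0. In each line SIRT3 itself was lower with shSIRT3-1 than with shSIRT3-2. Whether the changes in the heat shock genes follow the level of SIRT3 or other effects of a hairpin was not tested.

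Other chaperone and stress genes, from lists drawn up beside the heat shock genes, place these values. Over the 3 lines, none of the 8 chaperonin TRiC subunits, 18 other HSP90 co-chaperones and 13 other cytosolic HSP70 co-chaperones was called with either hairpin. Their medians were 0.09, -0.03 and 0.13 with shSIRT3-1 and 0.14, -0.01 and 0.12 with shSIRT3-2, and 2, 7 and 6 of them had an unadjusted p under 0.05 with shSIRT3-1 and 1, 11 and 6 with shSIRT3-2 by limma. Of the 31 tested heat shock genes, 17 and 18 were under the same unadjusted limit. The share of all tested genes under it is not given, so these counts alone do not show that a list responded. Of 6 prefoldin subunits PFDN6 rose with shSIRT3-1 (0.60 ± 0.11, adjusted p = 9.72e-05) and gave 0.36 ± 0.11 with shSIRT3-2. Of 8 other heat shock factors and regulators of HSF1, HSBP1, which binds HSF1, rose with shSIRT3-1 (0.69 ± 0.12, adjusted p = 4.89e-05) and gave 0.50 ± 0.12 with shSIRT3-2. Of 12 further genes that heat shock is known to induce, ATF3 fell with each hairpin, at -2.73 ± 0.40 (adjusted p = 9.20e-06) and -2.80 ± 0.40 (adjusted p = 8.01e-06), and no other gene of that list was called. In the endoplasmic reticulum, 2 of 16 chaperones rose with shSIRT3-1, and 2 rose and 3 fell with shSIRT3-2. Of all tested genes, 3.92% were called higher and 9.09% lower with shSIRT3-1, and 3.29% and 10.2% with shSIRT3-2. CALR rose by 0.91 ± 0.18 and 1.09 ± 0.18 and HSPA5 (BiP) by 0.82 ± 0.21 and 0.88 ± 0.21, while in mitochondria GRPEL2, an exchange factor, fell by 1.15 and 0.88 on the log2 scale and HSPE1 (HSP10) rose by 0.74 ± 0.15 with shSIRT3-2. The 8 other small heat shock proteins were all under the filter.

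**Figure D5:**
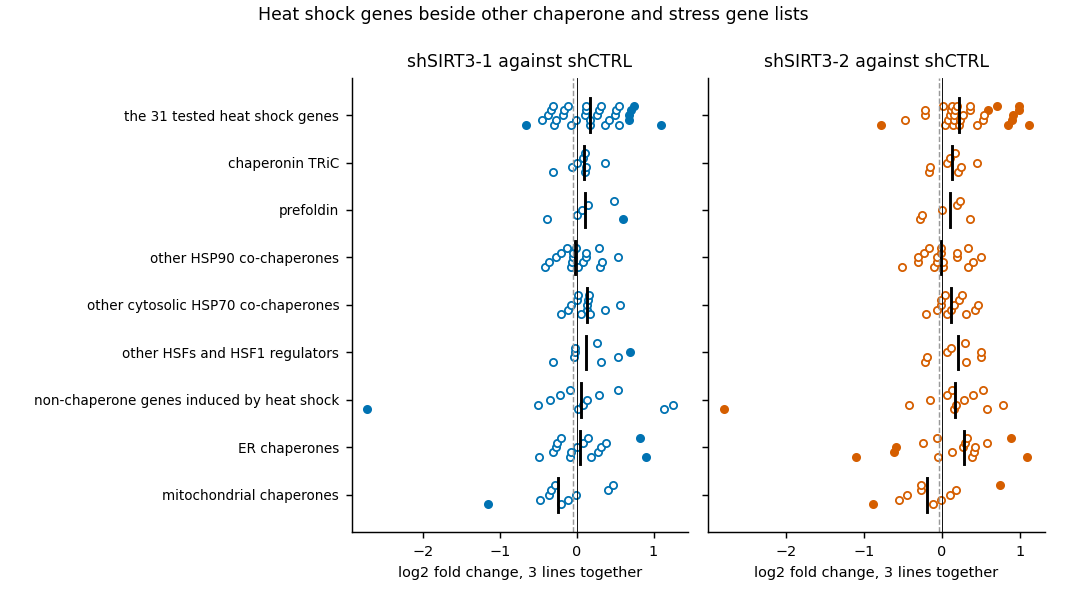
Each point is a tested gene of the list named at the left, with its log2 fold change over the 3 lines for shSIRT3-1 (left panel) and shSIRT3-2 (right panel). Filled points passed the test, black bars are list medians and the dashed line is the median of all tested genes. The medians of the 31 heat shock genes are 0.17 and 0.22, and ATF3 is the filled point at the far left.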

How the data were processed

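RNA-seq libraries (27, from 3 cell lines) were analysed from 1 table per library of 27115 genes. Per the study's methods, the authors aligned reads to hg19 with STAR and assigned them to RefSeq genes with Rsubread; the strand setting is not given in the sources used here. The values are labelled FPKM, but in every library they are whole multiples of 1 step that is the same for all genes (tolerance 0.001 reads), so the deposited values were used as CPM, and comparisons between genes were divided by transcript length. Tests used limma 3.58.1 on log2(CPM + 0.1), with genes of at least 1 CPM in at least 3 libraries, the mean-variance trend, Benjamini-Hochberg adjustment over all tested genes and a fold limit of 1.5. A fold change on this scale understates the change of low genes. Fits over the 3 lines had a term for the line, fits within a line used its 9 libraries, and the control comparisons used the shCTRL libraries. Reads recovered from the steps were tested with edgeR 4.0.16 as an alternative. Other alternatives were the pseudocount, the filter, the scaling, a replicate block, no variance trend, 1 fit of all 9 groups, and leaving out lines, replicates and single libraries.

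Values by library are given for genes called over the 3 lines, called the same way with both hairpins in 1 line, or called in 1 line with an interaction adjusted p under 0.05; of the other lists, up to 2 called genes with the largest mean change are named. BAG1, BAG3, AHSA1, DNAJB4, DNAJB2 and DNAJA4 were named after their values were seen. The heat shock genes and the lists were chosen with earlier results of these data known. Gene positions are from GRCh37 and promoter windows from RefSeq (GRCh38.p14). The tests were checked on simulated data.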

Additional observations from a re-analysis of the deposited data

Results flagged for a closer look

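The response to the hairpins differed between the 3 lines, by the limma interaction of line and shRNA, for 10 of the 31 tested heat shock genes, or 32.3%, against 41.8% of all tested genes, and for 0 by limma without replicate 1 of every group (6 at an unadjusted p under 0.05). The adjusted p was 0.000770 for HSPB1, 0.0010 for HSPB11, 0.00226 for HSPA13, 0.0163 for HSPA4L, 0.0305 for DNAJB2, 0.0328 for HSPA2, 0.0396 for STUB1, 0.0396 for DNAJA2, 0.0410 for BAG2 and 0.0454 for DNAJB1. With shSIRT3-2, the log2 fold change of HSPB1 was 0.28 ± 0.21 for Karpas422, -0.77 ± 0.20 for OCI-Ly1 and 1.07 ± 0.33 for HBL1. That of HSPA13 was -1.06 ± 0.12 for Karpas422, -0.25 ± 0.15 for OCI-Ly1 and -1.05 ± 0.13 for HBL1, and that of HSPB11 was -0.22 ± 0.11 for Karpas422, 0.27 ± 0.15 for OCI-Ly1 and 0.42 ± 0.15 for HBL1.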

How the results depend on the processing

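Over the alternatives, the values of the 12 genes described by library kept their side of the threshold in 3898 cases, lost the call in 220 and gained one in 82, and 0 called values changed sign. The 3898 cases include values called in neither fit, and the fits share libraries. This tally therefore does not give the share of calls that held. The count of heat shock genes called between the hairpins went from 2 to 1 with a pseudocount of 1, with quantile normalization and with both edgeR tests, to 7 without OCI-Ly1 and to 0 without HBL1. In OCI-Ly1 the 1 call with shSIRT3-2 went to 0 with no filter and with quantile normalization. Leaving out replicates or single libraries gave 3 to 8 called genes with shSIRT3-1 and 5 to 11 with shSIRT3-2 over the 3 lines, 1 to 4 between the hairpins, 4 to 12 and 4 to 12 in Karpas422, 0 to 10 and 0 to 11 in OCI-Ly1, 2 to 9 and 3 to 13 in HBL1, 0 to 13 for the interaction, and 11 to 13, 11 to 16 and 13 to 20 between the controls of HBL1 and Karpas422, HBL1 and OCI-Ly1, and Karpas422 and OCI-Ly1. These counts are given without the share of all tested genes called in the same fits, which also changes when libraries are left out. The causes were not tested beyond the smaller number of libraries.

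The labels do not say that replicate numbers pair the samples. Correlations were taken after the mean of each group was subtracted from every gene, between libraries of a line with different shRNAs. Same-numbered pairs correlated at 0.0144 to 0.564 (mean 0.32, 27 pairs). The 54 other pairs had a mean of -0.14, which the subtraction makes negative when same-numbered pairs are positive. By this measure 22 of 27 libraries were closest to their own number. Same-numbered libraries thus shared part of their deviation from the group mean, and the main fits have no term for it. With a replicate block, OCI-Ly1 with shSIRT3-1 had 3 calls instead of 1 (HSPA1B and HSPB1 gained), HSPA8 was gained in HBL1 with shSIRT3-1, DNAJB2 in HBL1 with shSIRT3-2 and HSF2, HSPA4 and FKBP4 for the interaction (13 instead of 10), no call was lost, and 6, 9 and 2 genes were called over the 3 lines with shSIRT3-1, with shSIRT3-2 and between the hairpins. Genes under about 1 CPM, HSPA1A, HSPA1L, HSPA6 and CRYAB, are at the limit of this depth.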
